A study of Mus musculus with 8 samples.

Results

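The interferon-stimulated genes described here are 42 genes that cells switch on after exposure to type I or type II interferon, including 4 of the STAT and IRF factors that drive them. They and the other lists used here were chosen by name, with earlier results of these data known. The members were matched to the identifiers of the count table, which held all 42 among its 16341 genes. Of these, 38 were among the 11717 genes with enough counts to be tested. RNA-seq had been made from 4T1, a metastatic mammary carcinoma line of BALB/c mice, after magnetic sorting by the surface protein SCA1. Ly6a, the gene that encodes SCA1, is itself induced by interferon, and the question put to the set is whether it moved with Ly6a or against it. The 4T1-Sca1+ and the 4T1-Sca1- group each held 4 libraries. The labels describe the cells as CD45-negative and as taken from the parental line, although the protocol text speaks of 4T1 tumor. No label ties the replicates to separate cultures, so p-values measure the spread between these libraries, which may be technical.

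Interferons bind receptor pairs at the cell surface, and the attached kinases JAK1, TYK2 and JAK2 phosphorylate STAT factors. STAT2 and IRF9 are subunits of ISGF3, which binds a DNA element named ISRE, while STAT dimers bind the GAS element. The genes switched on in this way include sensors of viral RNA, proteins that block viral translation and replication, GTPases that attack intracellular pathogens, and chemokines such as CXCL10 that call in T cells. Tumor cells can keep a low level of this response without added interferon.

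Most of the set lay lower in 4T1-Sca1+ cells, opposite to Ly6a. In the fit across all genes 24 of the 38 tested members were lower (63.2%), 1 was higher (2.63%) and 13 did not pass an edgeR adjusted p of 0.05. Over all tested genes 30.2% were lower and 31.3% were higher. The median log2 fold change of the 38 was -0.39 beside 0.0074 over all tested genes. Read without any test, normalized counts of 23 tested members (60.5%) were lower in every 4T1-Sca1+ library than in every 4T1-Sca1- library, beside 27.9% of all tested genes, and no tested member lay wholly higher. Most shifts were small. A fall of at least 2-fold was called for 3 members (7.89%), Cxcl10, Rsad2 and Ifit1, beside 0.879% of all tested genes. Fewer cells carrying the response and less RNA per cell cannot be told apart in these bulk libraries.

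**Figure D1:**
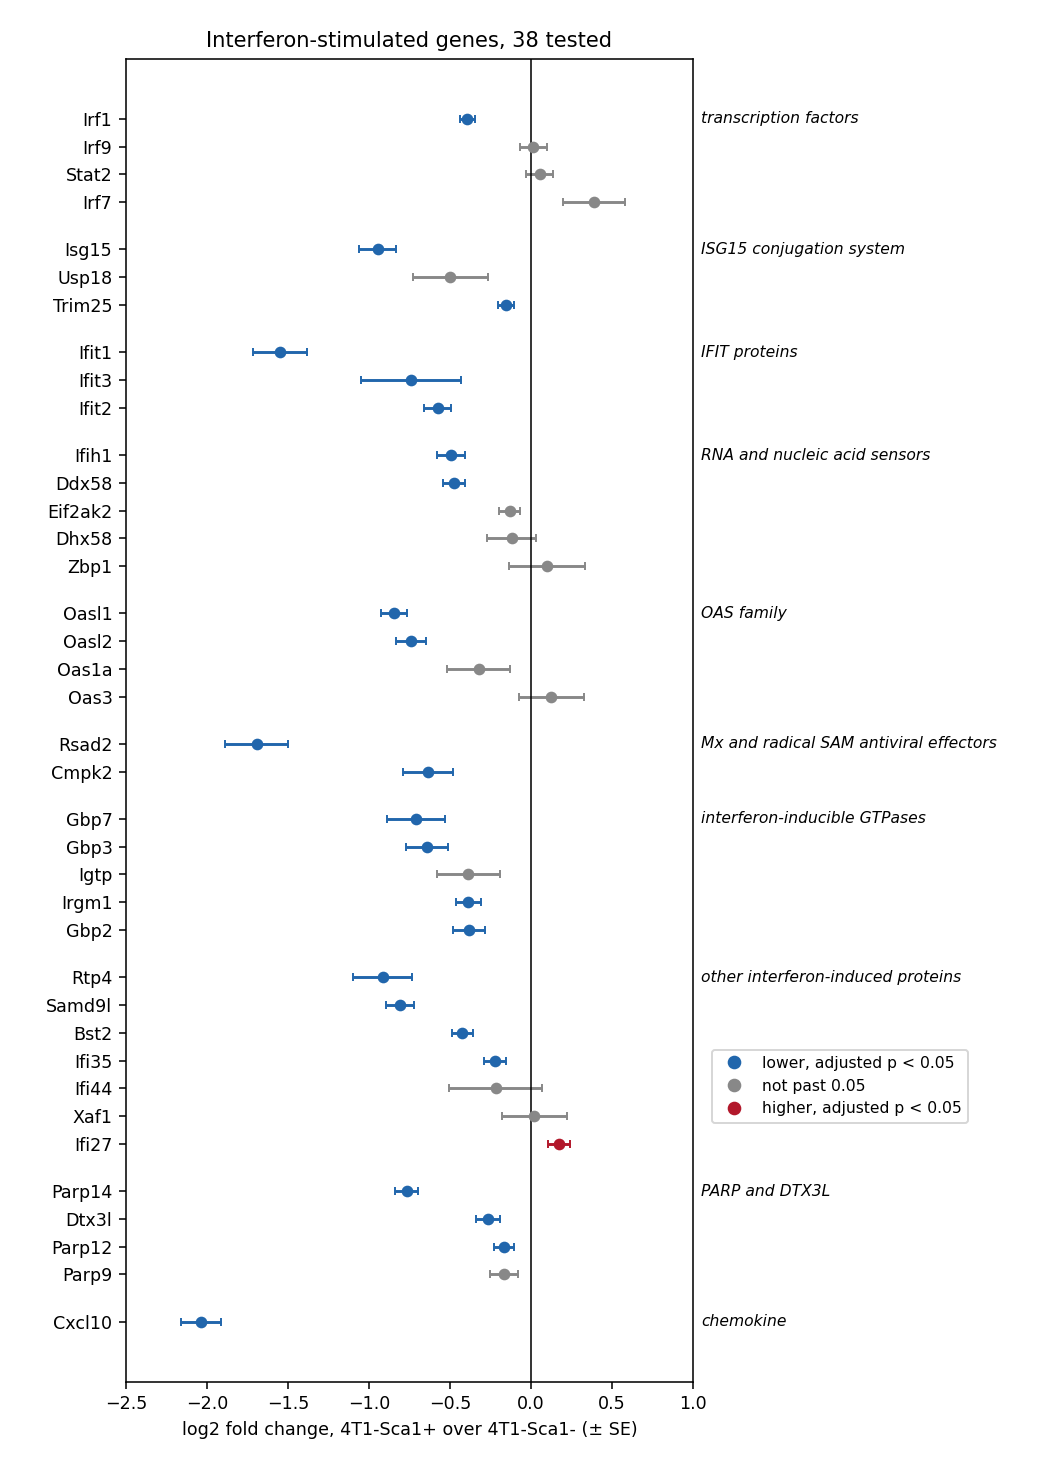
Log2 fold change of each of the 38 tested members, 4T1-Sca1+ over 4T1-Sca1-, with its SE from the edgeR fit, grouped by the role of the protein. Values run from -2.04 for Cxcl10 to 0.39 for Irf7, with 24 members lower (blue), 1 higher (red) and 13 not past the threshold (grey).

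Ly6a itself followed the sort. Its normalized counts were 161, 193, 145 and 168 in 4T1-Sca1+ replicates 1 to 4, and 1.91, 4.11, 0 and 1.14 in 4T1-Sca1- replicates 1 to 4. The log2 fold change was 6.42 (SE 0.27, edgeR adjusted p = 2.13e-12), and its direction is fixed by the sort and no finding. No member rose with it by any comparable amount, the highest called value among the members being 0.17 for Ifi27.

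Many of the promoters carry the letters of the ISRE. Promoter windows of RefSeq on GRCm38.p6, from 250 bases before to 50 bases after a start site, were in the table used here for 31 of the 42 genes. In 28 of their 35 promoters (80%) the bases after the start site lay in the opening part of a GENCODE M21 transcript of the gene. In the others they were not found there, so those start sites are less certain. The core GAAANNGAA was searched on both strands, with overlapping matches kept. It was found for 20 of the 31 genes (64.5%). Counted by promoter, it was in 20 of their 35 promoters (57.1%) and in 8.56% of the 32851 promoters in the table. The core of the GAS element, TTCNNNGAA, which reads the same on both strands, was found for 8 of the 31 (25.8%), in 22.9% of their promoters and in 8.3% of all promoters. An ISRE core was present for 14 of the 22 members called lower (63.6%) and for 6 of the 9 that were not called (66.7%), so its letters did not separate these groups. A GAS core was present for 5 of those 22 and 3 of those 9. A match describes the letters and is not a measured binding site.

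The windows below show the ISRE core matches, in capitals, of 4 members that fell strongly and of 2 that were not called. All run 5′ to 3′ along the strand of the gene, and a match on the other strand reads TTCNNTTTC. Cxcl10 lies at chr5:92349079-92349117 (minus strand, bases -228 to -190 from the start site). Rsad2 lies at chr12:26456548-26456586 (minus strand, -134 to -96). Ifit1 lies at chr19:34640765-34640828 (plus strand, -124 to -61). Isg15 lies at chr4:156200861-156200911 (minus strand, -93 to -43). Of the genes not called, Oas3 lies at chr5:120777705-120777749 (minus strand, -90 to -46) and Stat2 at chr10:128270262-128270300 (plus strand, -236 to -198).
Cxcl10: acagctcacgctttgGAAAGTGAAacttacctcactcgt
Rsad2: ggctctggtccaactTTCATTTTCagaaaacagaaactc
Ifit1: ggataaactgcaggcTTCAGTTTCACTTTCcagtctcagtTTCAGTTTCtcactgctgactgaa
Isg15: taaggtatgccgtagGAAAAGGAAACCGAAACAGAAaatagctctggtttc
Oas3: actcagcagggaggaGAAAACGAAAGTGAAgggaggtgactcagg
Stat2: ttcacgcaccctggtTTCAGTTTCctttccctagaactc
Ifit1 and Isg15 hold 3 matches each in these windows, Oas3 holds 2, and Cxcl10, Rsad2 and Stat2 hold 1. Isg15 fell and Oas3 did not pass the test, although both carry matches that overlap each other.

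Among the transcription factors, Irf1 fell and the subunits of ISGF3 that belong to the set did not pass the test. Irf1, an activator that is itself induced through a GAS element, had normalized counts of 939.6, 999.9, 1026 and 1028 in the 4T1-Sca1+ group, against 1285, 1313, 1338 and 1354 in the 4T1-Sca1- group. All 4T1-Sca1+ values lay below all 4T1-Sca1- values, with a log2 fold change of -0.39 (SE 0.05, edgeR adjusted p = 1.81e-06). Stat2 had 337 ± 41.4 against 327 ± 15.2 normalized counts (SD, n = 4 per group) and Irf9 had 220.5 ± 19.3 against 221 ± 6.49. Their log2 fold changes of 0.05 and 0.01 had SEs of 0.08 each and edgeR adjusted p of 0.593 and 0.892. Irf7, the factor that amplifies the type I response, had 61.4 ± 13.3 against 47.6 ± 11.7 normalized counts and overlapping groups (log2 fold change 0.39, SE 0.19, edgeR adjusted p = 0.0872). It passed as higher without 4T1-Sca1+ replicate 1 (0.49) and without 4T1-Sca1- replicate 4 (0.51). Exons of Irf7 overlap Phrf1 on the opposite strand (-0.01, edgeR adjusted p = 0.897), and those of Irf9 overlap Rnf31 on the same strand. The library kit does not keep the strand, so reads from overlapping exons cannot be assigned with certainty.

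The chemokine gene Cxcl10 fell most. Its normalized counts were 34.7, 40.4, 32.9 and 36.8 in the 4T1-Sca1+ group, against 147, 157, 135 and 162 in the 4T1-Sca1- group. The groups stand well apart, and the level was 4.10-fold lower (log2 fold change -2.04, SE 0.12, edgeR adjusted p = 2.26e-10). The overlapping gene Art3 had mean normalized counts of 0.496 and 0.278. CXCL10 is secreted and draws T cells and NK cells that carry CXCR3.

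Genes of the antiviral effectors that act on viral RNA and membranes followed. Rsad2, which encodes viperin, an enzyme that makes a chain-terminating nucleotide, had 19.2, 36.5, 29.9 and 16.6 normalized counts in the 4T1-Sca1+ group, against 85.0, 94.5, 75.7 and 74.2 in the 4T1-Sca1- group. It was 3.24-fold lower (log2 fold change -1.69, SE 0.19, edgeR adjusted p = 7.86e-07) with no overlap of the groups. Cmpk2, the mitochondrial nucleotide kinase encoded beside Rsad2 in the opposite direction (chr12:26469204-26479837 and chr12:26442746-26456452), fell by less, with 43.4 ± 9.17 against 67.6 ± 3.86 normalized counts (-0.64, SE 0.15, edgeR adjusted p = 0.00173). The dynamin-like GTPases of the Mx family were close to absent. Mx1 had a summed count of 13 in 4T1-Sca1+ and of 3 in 4T1-Sca1-, and Mx2 of 21 and 30, so neither was tested. Without a filter on low counts edgeR gave Mx1 an adjusted p of 0.0831 and Mx2 one of 0.237. In limma on log2 of the normalized table plus 1, which covered 15372 genes, Mx1 passed as higher (1.14 on that scale, adjusted p = 0.0323), on these few counts.

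The IFIT proteins, which bind foreign RNA ends and block translation, are encoded side by side on chromosome 19. All 3 counted members of the family in the set were called lower, beside 30.2% of all tested genes. Ifit1 had 23.8, 42.4, 32.9 and 29.8 normalized counts in the 4T1-Sca1+ group, against 95.5, 77.0, 109 and 98.2 in the 4T1-Sca1- group. This was 2.92-fold lower (log2 fold change -1.55, SE 0.17, edgeR adjusted p = 4.15e-07). Ifit2 had 225, 225, 182 and 232 against 337, 297, 325 and 344 normalized counts. Its groups did not overlap either, at a log2 fold change of -0.58 (SE 0.09, edgeR adjusted p = 1.51e-05). Ifit3 was scarce, with 7.70 ± 2.08 against 13.2 ± 2.75 normalized counts, and its call (-0.74, SE 0.31, edgeR adjusted p = 0.0453) was kept in only 5 of the 18 alternative fits that tested it. The call was lost without 4T1-Sca1+ replicate 2, 3 or 4 and without 4T1-Sca1- replicate 1, 3 or 4, at -0.75 to -0.60. Members of this family share sequence, and how shared reads were counted is not given in the sources used here.

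**Figure D2:**
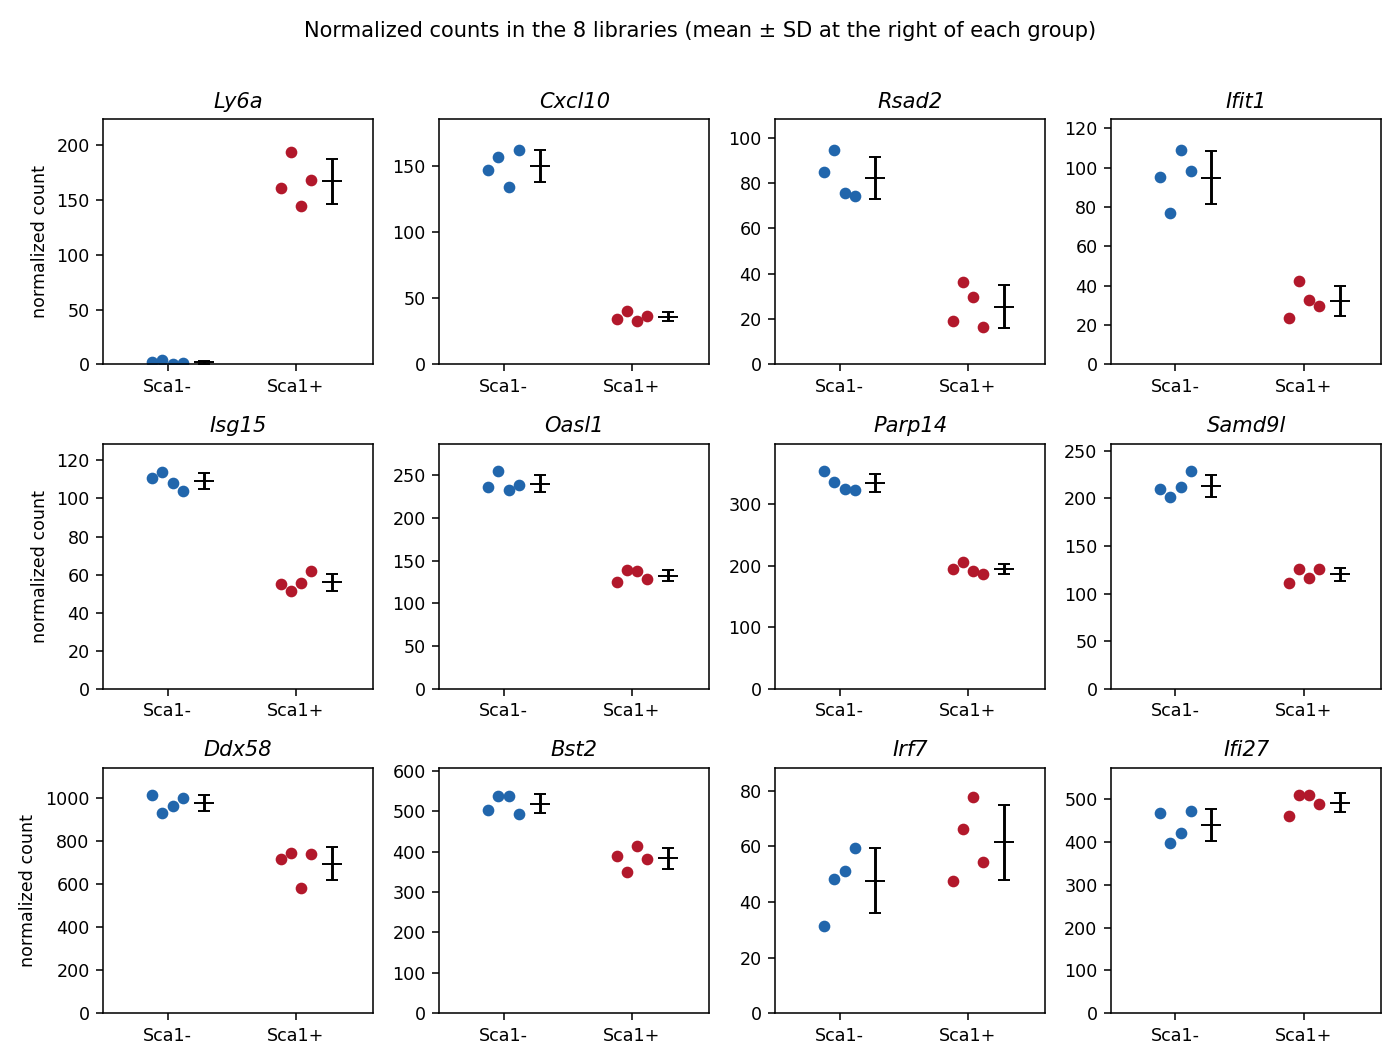
Normalized counts (read counts divided by the size factor of the library) of Ly6a and 11 members in each of the 8 libraries, with the mean and SD of each group at its right and every axis starting at 0. Ly6a is high in the 4T1-Sca1+ libraries, the 9 members from Cxcl10 to Bst2 are lower there without overlap, and Irf7 and Ifi27 overlap between the groups.

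ISG15 is a ubiquitin-like protein that is attached to other proteins during the response. Isg15 had 54.8, 51.3, 55.9 and 62.1 normalized counts in the 4T1-Sca1+ group, against 111, 114, 108 and 104 in the 4T1-Sca1- group. The spread within groups was small and the fall was 1.93-fold (log2 fold change -0.95, SE 0.11, edgeR adjusted p = 1.47e-06). Trim25, an E3 ligase that ubiquitinates RIG-I and can attach ISG15, was abundant and changed little, with 2228, 2083, 1978 and 2089.9 against 2435, 2371, 2304 and 2300.0 normalized counts (-0.15, SE 0.05, edgeR adjusted p = 0.00885). Usp18, the protease that removes ISG15 and damps the type I receptor, had 28.7 ± 4.58 against 41.7 ± 14.4 normalized counts and overlapping groups. It did not pass (-0.50, SE 0.23, edgeR adjusted p = 0.0714), but passed without 4T1-Sca1- replicate 1 (-0.72), with offsets corrected for GC content and length (-0.50) and without a low-count filter (-0.51).

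Of the 5 sensors of foreign nucleic acid, the genes of MDA5 and RIG-I fell and the other 3 did not pass. These 2 are 40% of the 5, near the 30.2% of all tested genes that were lower. Ifih1, which encodes MDA5, had 147, 146, 139.6 and 151 normalized counts in the 4T1-Sca1+ group, against 203, 198, 198 and 232 in the 4T1-Sca1- group (log2 fold change -0.50, SE 0.09, edgeR adjusted p = 8.34e-05). Ddx58, which encodes RIG-I, had 716, 744, 579.5 and 737 against 1010.4, 929, 959.5 and 999 normalized counts. The values of both genes were lower in every 4T1-Sca1+ library, and for Ddx58 the log2 fold change was -0.48 (SE 0.07, edgeR adjusted p = 1.36e-05). Eif2ak2, the gene of the RNA-activated kinase PKR, was as abundant but had overlapping groups, with 785 ± 64.8 against 867 ± 49.1 normalized counts (-0.13, SE 0.06, edgeR adjusted p = 0.0846). It passed as lower without 4T1-Sca1+ replicate 2 (-0.17) and without 4T1-Sca1- replicate 3 (-0.17). Dhx58, a regulator of both helicases, had 58.8 ± 1.00 against 64.8 ± 13.1 (-0.12, edgeR adjusted p = 0.514), and Zbp1, a sensor of Z-form nucleic acid, had 36.5 ± 9.79 against 34.9 ± 10.9 (0.10, edgeR adjusted p = 0.737).

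In the OAS family Oasl1 and Oasl2 fell, while Oas1a and Oas3 did not pass. Enzymes of the family make 2-5A, which activates RNase L, and mouse OASL1 restrains translation of Irf7 mRNA. Oasl1 had 125, 139, 138 and 129 normalized counts in the 4T1-Sca1+ group, against 236, 255, 233 and 239 in the 4T1-Sca1- group (log2 fold change -0.85, SE 0.08, edgeR adjusted p = 1.02e-07). Its neighbour Oasl2 had 129.8, 108, 139 and 116 against 202, 207, 213 and 210.0 normalized counts. No library of either group reached the range of the other, and Oasl2 had a log2 fold change of -0.74 (SE 0.09, edgeR adjusted p = 2.03e-06). Oas1a had 44.1 ± 9.01 against 56.5 ± 14.6 normalized counts (-0.32, SE 0.19, edgeR adjusted p = 0.158). It passed as lower without 4T1-Sca1+ replicate 1 (-0.49) and without 4T1-Sca1- replicate 1 (-0.49). Oas3 had 37.6 ± 4.54 against 34.9 ± 10.6 (0.13, SE 0.20, edgeR adjusted p = 0.607), and Oas2 was not tested, at 14 counts in total against 11.

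The interferon-inducible GTPases coat and break the vacuoles of intracellular pathogens. Of their 5 tested genes 4 fell (80%), beside 30.2% of all tested genes. Gbp2 had 139.8, 159.8, 138 and 122 normalized counts in the 4T1-Sca1+ group, against 197, 172, 184 and 180.3 in the 4T1-Sca1- group (log2 fold change -0.38, SE 0.10, edgeR adjusted p = 0.00226). Gbp3 (-0.64, edgeR adjusted p = 0.000416) and Gbp7 (-0.71, edgeR adjusted p = 0.00227), of the same cluster on chromosome 3, were lower at 54.9 ± 7.18 against 85.8 ± 7.44 and at 32.9 ± 6.67 against 55.0 ± 8.30 normalized counts. Irgm1, a regulator of the IRG GTPases, had 207, 198, 182 and 188 against 251, 251, 269 and 251 normalized counts. Its 4T1-Sca1- libraries lay close together and above all 4T1-Sca1+ libraries (-0.39, SE 0.08, edgeR adjusted p = 0.00032). Igtp had 33.9 ± 8.91 against 44.5 ± 6.53 (-0.39, SE 0.19, edgeR adjusted p = 0.0916) and passed as lower without 4T1-Sca1+ replicate 1 (-0.53) and without 4T1-Sca1+ replicate 3 (-0.47). It shares exons with Irgm2 on the same strand. Iigp1 was not tested, at 8 counts in total against 11.

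Of the ADP-ribosyltransferase group, Parp14, a regulator of STAT signaling, fell most. It had 195, 207, 193 and 186 normalized counts in the 4T1-Sca1+ group, against 354, 336, 325 and 324 in the 4T1-Sca1- group (log2 fold change -0.77, SE 0.07, edgeR adjusted p = 7.37e-08). Dtx3l, the E3 ligase that works as a complex with PARP9, had 326, 281, 315 and 350.1 against 411, 373, 376 and 388 (-0.27, SE 0.07, edgeR adjusted p = 0.00442). Both genes lay lower in all 4T1-Sca1+ libraries. Parp9 starts beside Dtx3l on the opposite strand, shares exon sequence with it and had 259 ± 22.3 against 295 ± 28.0 normalized counts (-0.17, SE 0.09, edgeR adjusted p = 0.0988). It passed as lower without 4T1-Sca1- replicate 1, at -0.23. Parp12 had 516, 477, 476 and 447 against 545, 524, 542 and 562 normalized counts, a small difference (-0.17, SE 0.06, edgeR adjusted p = 0.0235) whose call was lost in 4 of 19 alternative fits. These included the fits without 4T1-Sca1+ replicate 4 (-0.14) and without 4T1-Sca1- replicate 4 (-0.15).

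Of the 7 remaining members 4 were called lower (57.1%), 1 was called higher (14.3%, Ifi27, described below) and 2 did not pass. Of all tested genes, 30.2% were lower and 31.3% higher. Samd9l, an antiviral growth suppressor, had 112, 126, 117 and 126 normalized counts in the 4T1-Sca1+ group, against 210.1, 201, 211 and 228 in the 4T1-Sca1- group (log2 fold change -0.81, SE 0.09, edgeR adjusted p = 4.22e-07). Bst2, which encodes tetherin, a protein that holds budding virus at the membrane, had 388, 350.1, 415 and 381 against 503, 539, 539 and 494 (-0.42, SE 0.07, edgeR adjusted p = 2.38e-05). Ifi35 had 383, 369.8, 394 and 367 against 422, 421, 451 and 489 (-0.22, SE 0.07, edgeR adjusted p = 0.00765). In these 3 genes the groups did not overlap. Rtp4, a chaperone of receptor transport, fell from 46.6 ± 2.14 to 24.3 ± 5.88 normalized counts (-0.92, SE 0.18, edgeR adjusted p = 0.000345). Ifi44 and the apoptosis gene Xaf1 were scarce, at 13.9 ± 2.09 against 16.1 ± 6.01 (-0.22, edgeR adjusted p = 0.528) and 27.4 ± 4.91 against 27.2 ± 3.96 (0.02, edgeR adjusted p = 0.934).

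Ifi27 was the only member called higher in the fit across all genes. It encodes a small protein of mitochondria and the nuclear envelope. Its normalized counts were 461, 509, 509 and 488 in the 4T1-Sca1+ group, against 468, 396, 422 and 471 in the 4T1-Sca1- group, so the groups overlapped. The log2 fold change of 0.17 (SE 0.07, edgeR adjusted p = 0.0345) kept its call in 8 of 19 alternative fits, and over the fits leaving out a library it ran from 0.12 without 4T1-Sca1- replicate 2 to 0.21. The calls lost without a library were those without 4T1-Sca1+ replicate 2 (0.16), 3 (0.16) or 4 (0.18) and without 4T1-Sca1- replicate 2 or 3 (0.15).

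Per length, the members differed in level far more than they differed between the groups, from 0.0135 (Mx1) to 37.7 (Bst2) CPM per kilobase of exon in 4T1-Sca1- cells. On this scale (counts scaled to the TMM-adjusted library total and to exon length) the highest levels in 4T1-Sca1- cells were those of Bst2 (37.7 ± 1.69), Trim25 (26.8 ± 0.706), Irf1 (21.8 ± 0.512) and Ifi27 (19.6 ± 1.65). In 4T1-Sca1+ cells the order was Bst2 (28.1 ± 1.90), Trim25 (24.1 ± 1.24), Ifi27 (22.2 ± 0.985) and Irf1 (16.6 ± 0.661). Ly6a stood at 9.15 ± 1.12 in 4T1-Sca1+ cells, below these 4 members. The 5 members whose normalized counts averaged 500 or more, Trim25, Irf1, Ddx58, Eif2ak2 and Parp12, had log2 fold changes between -0.48 and -0.13, and the 3 members that fell at least 2-fold had mean normalized counts of 93.2 (Cxcl10), 63.6 (Ifit1) and 54.0 (Rsad2). Summed over the 42 members, normalized counts were 9036 to 9536 per 4T1-Sca1+ library and 11568 to 11960 per 4T1-Sca1- library.

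The median differed between parts of the set. Among the members, 8 belong to the list of genes that the study drew from these same libraries as marking 4T1-Sca1- cells (Isg15, Ifit1, Oasl1, Rsad2, Parp14, Samd9l, Rtp4 and Cxcl10). Their fall is therefore not independent evidence. The copy of that list used here holds 186 distinct names and may be shorter than the list the study drew. Of the 34 members not found in it 30 were tested, of which 16 were lower and 1 higher, with a median log2 fold change of -0.30. Without the IFIT, OAS, GBP, IRG and Mx families, 15 of 26 tested members were lower and 1 was higher, with a median of -0.24. Another list of the study names genes induced by myeloid cells from tumors (Tu-Gr1) and holds Ly6a. It shared 24 members with the set. Of the 20 tested, 9 were lower (45%) and 1 was higher (5%), with a median of -0.39. Of the 18 tested members outside that list, 15 were lower (83.3%) and 0 higher, with a median of -0.43. The shares of all tested genes were 30.2% lower and 31.3% higher.

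Without GC and length correction, other interferon-induced genes did not, as a list, share the direction of the members. Of 93 further genes known to be induced by interferon, 74 were tested, of which 24 were higher (32.4%) and 23 were lower (31.1%). These shares lie near those of all tested genes, and the median log2 fold change was 0.02. With GC and length corrected offsets 22 were higher and 32 lower. The median over all tested genes was then -0.0578, and the shares of all tested genes under these offsets are not reported here. Among called genes whose normalized counts averaged 50 or more, the lowest were the IRG GTPase gene Ifi47 (-0.99, SE 0.14), the chemokine gene Ccl5 (-0.69, SE 0.15), the aminopeptidase gene Lap3 (-0.59, SE 0.05), Pnpt1 (-0.54, SE 0.06), Apol9a (-0.53, SE 0.09) and Epsti1 (-0.47, SE 0.15). The highest were Slfn2 (1.53, SE 0.10), Ly6e (1.21, SE 0.07), Lgals3bp (1.14, SE 0.05), Nlrc5, the activator of MHC class I genes (0.91, SE 0.06), Ifi203 (0.83, SE 0.06) and the galectin gene Lgals9 (0.71, SE 0.07). All 12 passed in the edgeR fit. Ly6e and Ly6c1 are members of the same gene family as Ly6a, and both went with Ly6a. Ly6c1 averaged below 50 and is named outside that rule, while Ly6c2, also listed and counted, is not described here. How any reads shared within this family were counted is not given in the sources used here. Ly6c1 had 44.2 ± 3.53 normalized counts in the 4T1-Sca1+ group, against 0.557 ± 1.11 in the 4T1-Sca1- group.

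**Figure D3:**
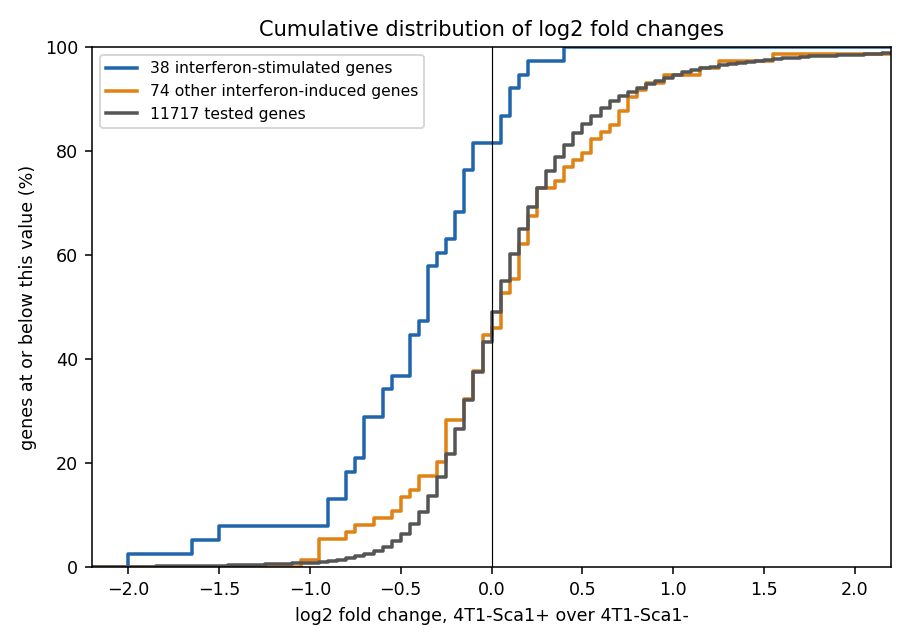
Cumulative share of genes (in percent) at or below each log2 fold change, for the 38 tested members, the 74 other interferon-induced genes and all 11717 tested genes. The curve of the members lies to the left, with a median of -0.39, while that of the other interferon-induced genes runs near that of all genes, with a median of 0.02.

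Upstream of the members, the receptor and signaling genes went in both directions. Among the 18 tested, 8 were higher (44.4%) and 5 lower (27.8%), against 31.3% and 30.2% of all tested genes. Receptor chains were split, with Ifnar1 of the type I receptor slightly higher (1072 ± 37.2 against 943 ± 33.2 normalized counts, log2 fold change 0.20), Ifngr1 of the type II receptor lower (589 ± 13.2 against 783 ± 27.3, -0.40), and Ifnlr1 of the type III receptor higher at a low level (69.9 ± 16.9 against 33.2 ± 5.31, 1.08). Il10rb, the shared chain of the type III receptor, was lower (-0.17, edgeR adjusted p = 0.0332). Its call was lost without 4T1-Sca1+ replicate 1 (-0.16), without 4T1-Sca1+ replicate 2 (-0.14) and without 4T1-Sca1- replicate 4 (-0.15). The call was also lost with upper-quartile scaling (-0.14), with library totals alone (-0.13) and in DESeq2 (-0.19). Ifnar2 (0.06, edgeR adjusted p = 0.446) and Ifngr2 (-0.10, edgeR adjusted p = 0.12) did not pass, and Ifngr2 passed as lower without 4T1-Sca1+ replicate 3 and with offsets corrected for GC content and length (-0.13 in both).

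Of the kinases and factors, Jak2 (2663 ± 115 against 1475 ± 62.5 normalized counts, log2 fold change 0.86, edgeR adjusted p = 9.59e-11) and Irf8 (291 ± 37.1 against 138 ± 14.3, 1.08, edgeR adjusted p = 8.53e-08) rose most, with Irf2bp2 (0.90). Irf5 was lower (-0.81). Jak1 (-0.04), Irf2 (-0.04) and Irf3 (0.00) did not pass. With offsets corrected for GC content and length, Jak1 (-0.10) and Irf3 (-0.22) passed as lower. Tyk2 (0.28), Stat3 (0.14) and Irf2bp1 (0.36) were called higher, and under the same offsets they fell to -0.0005, -0.01 and -0.05 and lost the call. The call of Stat3 was also lost without 4T1-Sca1- replicate 1 (0.11) and without 4T1-Sca1- replicate 3 (0.13). Under those offsets 5 of the 18 were higher and 8 lower.

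Of 11 tested inhibitors of the pathway 6 were higher (54.5%) and 2 were lower (18.2%), beside the same 31.3% and 30.2% of all tested genes. Socs1, which blocks the JAK kinases, had 128 ± 27.0 against 71.3 ± 15.3 normalized counts (log2 fold change 0.85, edgeR adjusted p = 0.000186). The phosphatase gene Ptpn6 (0.63), Cish (0.59), Socs3 (0.40), Pias3 (0.37) and Ptpn1 (0.20) were also called higher, and Ptpn2 (-0.42) and Ptpn11 (-0.34) lower. With GC and length corrected offsets Socs3 (0.09) and Ptpn1 (-0.04) lost the call and Pias4 (-0.18) passed as lower, while Socs1 (0.60) kept its call. Of 20 tested genes that sense nucleic acid or relay that signal to interferon, 5 were higher, among them Tlr4 (0.57), and 5 were lower, among them Tlr3 (-0.40) and Ikbke (-0.33). Each count is 25% of the list, below the share of all tested genes. Transcripts of the interferons were close to absent. Ifnab, Ifnb1 and Ifnk were the ligand genes in the count table, with a sum of at most 1.91 normalized counts in any library, and the other 18 ligand genes listed were not analysed here.

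**Figure D4:**
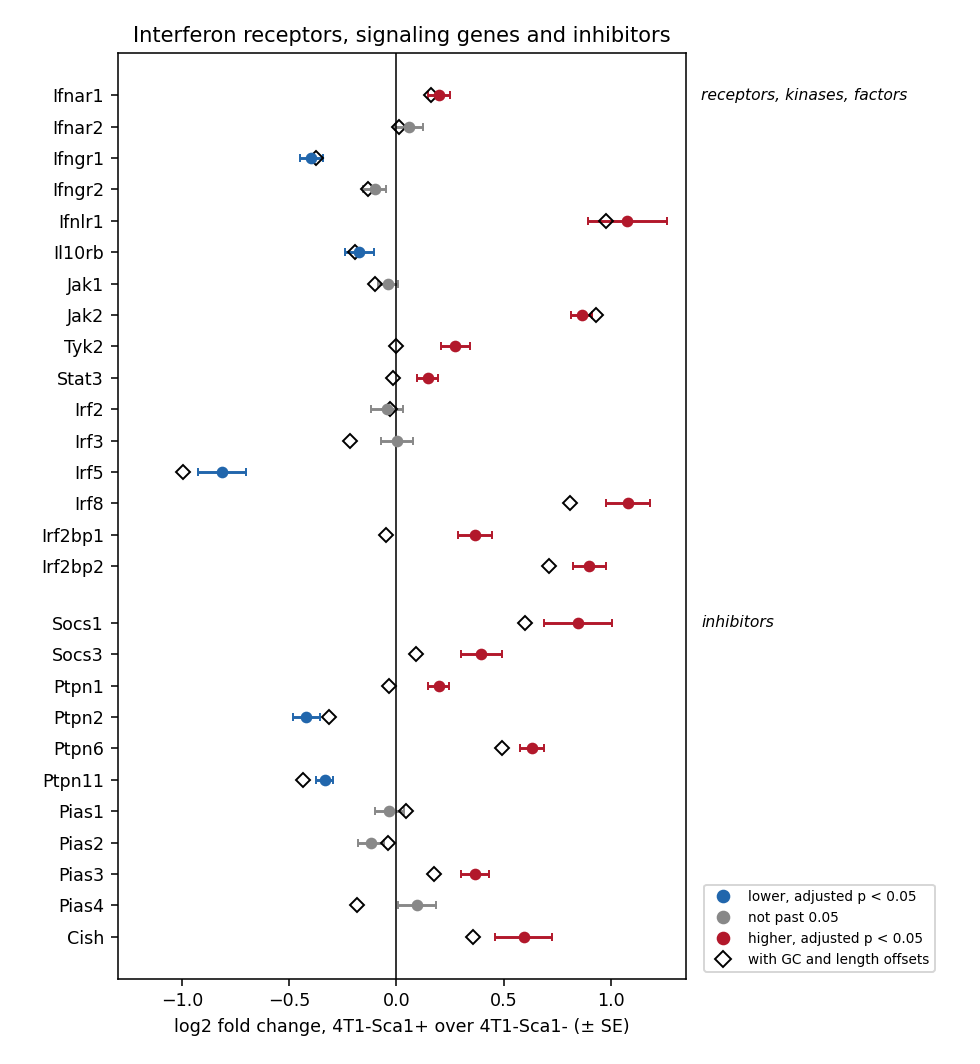
Log2 fold change, 4T1-Sca1+ over 4T1-Sca1-, with its SE for 16 receptor and signaling genes and 11 inhibitors (filled circles, colored by call), and the value with offsets corrected for GC content and length (open diamonds). Jak2, Irf8, Ifnlr1, Irf2bp2 and Socs1 stay higher in both, while Tyk2, Stat3, Irf2bp1 and Ptpn1 move to 0 or below.

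Total counts were 13561804 to 16968215 per library. The 11 markers of mammary epithelium, among them Krt8, Krt18 and Epcam, were all counted, and 1 never exceeded 10 counts in a library. As a sum they were abundant, with normalized counts of 61303 to 67590 in 4T1-Sca1+ and 63850 to 69031 in 4T1-Sca1- libraries. Of the 10 tested, 5 were called lower (50%) and 2 higher (20%), beside 30.2% and 31.3% of all tested genes. Of 21 leukocyte markers 13 were counted, 9 of which never exceeded 10 counts in a library, including Ptprc (2.32 ± 0.788 against 0.535 ± 0.619 normalized counts). Their sum was 413 to 477 in 4T1-Sca1+ and 229 to 271 in 4T1-Sca1- libraries, carried by Cd68, Cd74, Csf1r and S100a8, all 4 of which were called higher. The fibroblast markers, 7 of 10 counted, summed to 635 to 671 and 395 to 468, mostly Pdgfra, and the endothelial markers, 6 of 8 counted, to 34.7 to 43.9 and 42.3 to 66.2. Leukocyte and fibroblast sums thus lay on the side of 4T1-Sca1+, where most members were lower, and their part in the values of the members was not tested. Of the plasmacytoid dendritic cell markers, 6 of 8 were counted and 3 passed 10 counts, Bst2 among them, with sums of 2534 to 2760 and 2221 to 2439 that were mostly Tcf4.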

How the data were processed

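The 8 libraries (4 of 4T1-Sca1+, 4 of 4T1-Sca1-) were made with a TruSeq RNA v2 kit. The authors deposited read counts per gene, and a table of normalized values, unit signal, which equals the deposited counts divided by DESeq2 size factors within a relative difference of 5e-15. Per the submitters' processing notes, reads were trimmed with cutadapt 1.16 and mapped with STAR 2.5.3a to GRCm38 (mm10). The counting tool, annotation and strand setting are not given in the sources used here.

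Counts of 11717 genes passing filterByExpr were fitted with edgeR 4.0.16 (TMM, quasi-likelihood test, two-sided, no covariate), with Benjamini-Hochberg adjustment over all tested genes and a threshold of 0.05. Normalized counts are counts over DESeq2 1.42.0 size factors. Levels between genes are TMM-scaled CPM per kilobase of GENCODE M21 exon. SD is over 4 libraries. The fit was tested on simulated data. Of the counted genes, 16202 were found in GENCODE M21 and 139 were not.

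The members and all lists were chosen with earlier results of these data known, and the signatures of the study were used as lists of names. Every member is named. Values per library are given for called members whose normalized counts averaged 100 or more, with no overlap of the groups, and, chosen after their values were seen, for Cxcl10, Rsad2, Ifit1, Isg15 and Ifi27. The tested receptor and signaling genes are named, apart from 2 counted in their list but not reported here, and of the other interferon-induced genes the 6 highest and 6 lowest called averaging 50 or more, plus Ly6c1. Examples among inhibitors and sensing genes were chosen after their values were seen. Adar stands in more than 1 list. Alternatives were other scaling, GC and length corrected offsets, other low-count filters, DESeq2, limma 3.58.1 (voom, and log2 of normalized values plus 1 or 0.5), a replicate block, and leaving out each library.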

Additional observations from a re-analysis of the deposited data

Results flagged for a closer look

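A single library stood far away from its 3 companions in 11 of 116 comparisons, and about 5.8 (1 in 20) would arise by chance. Among members called lower, the normalized count of Ddx58 fell to 579.5 for 4T1-Sca1+ replicate 3 while the others had 716 to 744, and Ifit2 had 182 in the same library, below 225 to 232. Ifih1 had 232 in 4T1-Sca1- replicate 4, above 198 to 203, and Rtp4 had 43.4 there, below 47.2 to 47.9. Irgm1 had 269 in 4T1-Sca1- replicate 3, above 250.5 to 251. Among members that were not called, Oas1a had 57.6 in 4T1-Sca1+ replicate 1, above 39.4 to 39.9, and Irf9 had 249 in 4T1-Sca1+ replicate 4, above 210.0 to 212. The median over members of the log2 ratio of a library to the mean of the gene reached -0.23 for 4T1-Sca1+ replicate 3, while the others of that group had -0.20 to -0.19. In the 4T1-Sca1- libraries this median ran from 0.17 to 0.25. Of the signaling genes, Ifnlr1 had 41.1 in 4T1-Sca1- replicate 2, above 29.6 to 31.2. Jak2 had 1568 in 4T1-Sca1- replicate 1, above 1433 to 1454, and Irf2 had 707 in 4T1-Sca1+ replicate 2, above 576 to 580.2. These values fall on all 8 libraries, and no cause was tested.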

How the results depend on the processing

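Over 19 alternative fits 22 to 26 members were called lower, and the median log2 fold change of the members ran from -0.46 to -0.35. Of the 24 members called lower, 22 kept the call in every alternative fit, the exceptions being Ifit3 and Parp12. Ly6a stayed higher in all 18 alternative fits that tested it, between 6.05 and 7.14. The median of all genes moved between -0.0578 and 0.0502.

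The count of members called higher, 1 in the report, was 0 with GC and length corrected offsets, without a low-count filter, in DESeq2, with the replicate block, at an adjusted p of 0.01 and at 1.5-fold or a log2 fold change of 1, and 0 to 2 when a library was left out. At 1.5-fold and at a log2 fold change of 1, members called lower numbered 13 and 3, all genes higher 1367 and 612, all genes lower 478 and 103, other interferon-induced genes higher 11 and 4 and lower 8 and 1, and receptor and signaling genes higher 4 and 2 and lower 2 and 0. With GC and length corrected offsets 5 receptor and signaling genes were higher and 8 lower. The members' median was -0.35 with library totals alone, -0.46 to -0.39 when a library was left out (-0.46 without 4T1-Sca1+ replicate 1, -0.43 without 4T1-Sca1- replicate 1), -0.30 without the study's signature genes, and -0.24 without multigene families, where 15 members were lower. For these changes the cause was not tested.

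Some values changed sign. With GC and length corrected offsets Stat2 (-0.0758), Irf9 (-0.0524), Oas3 (-0.094), Tyk2 (-0.0005), Stat3 (-0.0146), Irf2bp1 (-0.0479) and Irf3 (-0.22, adjusted p = 0.000355) turned negative. When a library was left out, Stat2 ran from -0.0042 to 0.11, Irf9 from -0.0539 to 0.0361, Xaf1 from -0.0588 to 0.13, Zbp1 from -0.0787 to 0.26 and Irf3 from -0.0901 to 0.0527. Irf9 was -0.0056 and -0.0057 in limma on log2 of normalized values plus 1 and plus 0.5. Irf3 was -0.0089 with DESeq2 size factors, -0.0097 without a low-count filter, -0.0084 in DESeq2, -0.0022 in limma-voom and -0.0134 in limma on both log2 tables, and Jak1 was 0.0017 with library totals alone.

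The replicate numbers of the labels were checked as pairs. Deviations of same-numbered libraries from their group means correlated at 0.12, -0.20, -0.05 and 0.00192 for replicates 1 to 4. Libraries of unlike numbers were not compared in this way, so these values cannot decide whether the numbers mark pairs. With the replicate block 23 members were lower and 0 higher. Depth limits Mx1, Mx2, Oas2 and Iigp1, which had at most 30 counts in total over the 4 libraries of a group.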

Other observations

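Some smaller families among the other interferon-induced genes had several members called in 1 direction, chosen here after their values were seen. Over that whole list 32.4% were called higher and 31.1% lower, beside 31.3% and 30.2% of all tested genes. The genes of the activating and conjugating enzymes of ISG15, Uba7 (242 ± 20.2 against 165 ± 5.99 normalized counts, log2 fold change 0.56, SE 0.08) and Ube2l6 (138 ± 5.65 against 103 ± 11.1, 0.44, SE 0.10), were called higher in 4T1-Sca1+ cells, opposite to Isg15. All 3 tested Schlafen genes were called higher, with log2 fold changes of 1.53 for Slfn2, 0.67 for Slfn8 and 0.38 for Slfn9. Of the interferon-induced transmembrane genes, Ifitm1 was listed and counted but is not described here. Ifitm2 (2796 ± 155 against 2006 ± 119, 0.49) and Ifitm3 (3137 ± 146 against 1933 ± 125, 0.71) were called higher, and so were the DNA-sensor genes Ifi203 (0.83) and Ifi204 (0.52). Against these, the IRG GTPase genes Ifi47 (-0.99), Tgtp1 (-0.97) and Irgm2 (-0.79) were called lower. Of the tested IRG members, Irgm1 was lower and Igtp did not pass. Gbp9, a GTPase gene of the other interferon-induced list, was not called (0.16) and passed as higher with GC and length corrected offsets (0.24). Tgtp2, a near-identical copy of Tgtp1, was not tested, at 19 counts in total against 5, with normalized counts in every 4T1-Sca1+ library above those in every 4T1-Sca1- library. The counting could split reads between these copies, so the value of Tgtp1 is uncertain. Apart from Gbp9, the calls of the tested genes named here were the same with GC and length corrected offsets.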
